A study of Mus musculus with 13 samples.

Results

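The genes described here are 6 zinc genes of claustrum neurons: the transporters Slc30a3, Slc30a1 and Slc30a4 and the metallothioneins Mt1, Mt2 and Mt3. They were chosen by name, with earlier results of these data known, and all 6 are listed among the 16575 genes that both count tables share, of 23427 genes in either table. The measurements are single-cell RNA sequencing of cells picked manually out of claustrum tissue of 4 mature male C57BL/6 mice, on 13 plates. One animal, the blindly sampled mouse, had rAAV2-retro-CAG-GFP, a retrograde virus, injected into the anterior cingulate cortex. The fluorophore guided the dissection of its 3 plates but not the choice of cells. The other 3 animals, projection mice 1 to 3, had green retrobeads in the lateral entorhinal cortex (LEC) and red retrobeads in the retrosplenial cortex (RSC). Their cells, on 10 plates, carry the label RSC, LEC or unlabelled, and the last does not show that a cell projects to neither target. Dissociated cells of several slices of an animal were pooled, though in the blindly sampled mouse anterior and posterior sections were taken separately. Cells of both are summed here. The animals carried no engineered allele that the labels or the methods name, and no cell of the blindly sampled mouse has a projection label.

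Of 1112 harvested cells, the 1011 with at least 1 count of Snap25 (a protein of the synaptic vesicle fusion machinery of neurons) and of Slc17a7 (the vesicular glutamate transporter of cortical excitatory cells) were kept. These were 238 cells of the blindly sampled mouse and 224, 220 and 329 cells of projection mice 1, 2 and 3. Among the kept cells of the projection mice 247 were RSC-labelled, 286 LEC-labelled and 240 unlabelled. Kept cells were divided by Synpr (synaptoporin, a synaptic vesicle protein and marker of the claustrum core) into 438 cells with at least 200 CPM (the counts of a gene per 1000000 counts of all genes), here Synpr-high, and 573 cells below, here Synpr-low. Only 13 cells lay at 100 to 200 CPM and 8 at 200 to 400 CPM, while 397 had no count of Synpr. The median total count per cell was 26023 in the blindly sampled mouse and 138535 to 154262 in the projection mice. The mouse, its injected virus, its depth and its sequencing run, which is inferred, cannot be told apart. All but 1 of the plates of the projection mice hold cells of a single label. The exception is plate 12 of projection mouse 3, with 34 RSC and 44 LEC cells, and its values stand beside the pooled ones. The tables use 368 well barcodes, of which 343 recur on more than 1 plate.

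Zinc enters synaptic vesicles of a subset of glutamatergic forebrain neurons through ZnT3, the product of Slc30a3, and is released with glutamate. Slc30a1 encodes ZnT1, which exports zinc across the plasma membrane, and Slc30a4 encodes ZnT4, which moves zinc into intracellular compartments. Metallothioneins are small cytosolic proteins whose cysteines bind zinc and copper. Transcription of Mt1, Mt2 and Slc30a1 is induced by zinc through the metal-responsive factor MTF1, which binds metal response elements in promoters. Mt1 and Mt2 are made by many cell types and are abundant in astrocytes, and Mt3 is the form enriched in the brain.

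The coding sequences of the metallothioneins are shown because they give the identity of the measured genes and how far the 3 can be told apart by reads. They come from GENCODE M21, the first-listed transcript of each gene, and the capitals mark the in-frame codons TGC and TGT, which encode cysteine.
Mt1: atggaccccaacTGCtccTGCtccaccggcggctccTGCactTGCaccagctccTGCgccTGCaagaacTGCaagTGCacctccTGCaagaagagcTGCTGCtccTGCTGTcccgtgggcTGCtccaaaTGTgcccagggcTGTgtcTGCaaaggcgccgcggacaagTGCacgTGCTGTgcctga
Mt2: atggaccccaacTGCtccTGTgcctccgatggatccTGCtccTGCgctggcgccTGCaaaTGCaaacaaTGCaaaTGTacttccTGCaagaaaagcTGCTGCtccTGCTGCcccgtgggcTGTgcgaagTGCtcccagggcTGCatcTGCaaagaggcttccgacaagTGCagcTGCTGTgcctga
Mt3: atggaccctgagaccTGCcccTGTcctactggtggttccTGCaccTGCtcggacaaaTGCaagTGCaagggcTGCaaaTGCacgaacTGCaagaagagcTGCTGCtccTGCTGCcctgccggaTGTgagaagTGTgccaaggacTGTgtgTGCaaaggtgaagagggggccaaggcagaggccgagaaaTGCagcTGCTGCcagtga
Each holds 20 such codons, in 61 codons for Mt1, 61 for Mt2 and 68 for Mt3, and none holds a histidine codon. The coding sequences of Mt1 and Mt2 have the same length and 79.6% identical bases. The longest run of bases that 2 of the transcripts share without a mismatch was 20 for Mt1 and Mt2, 27 for Mt1 and Mt3 and 20 for Mt2 and Mt3, which is shorter than a read of either sequencing run. The 3 genes stand in 1 cluster on chromosome 8 that spans 27721 bases in the order Mt3, Mt2, Mt1, all on the plus strand.

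The deposited counts were made on build NCBIM37, and positions are given here from the GENCODE M21 annotation of GRCm38. In that build Slc30a3 (ENSMUSG00000029151) lies at chr5:31086106-31108237 on the minus strand, Slc30a1 (ENSMUSG00000037434) at chr1:191906767-191913247 on the plus strand, Slc30a4 (ENSMUSG00000005802) at chr2:122681233-122702663 on the minus strand, Mt1 (ENSMUSG00000031765) at chr8:94179082-94180327, Mt2 (ENSMUSG00000031762) at chr8:94172664-94173568 and Mt3 (ENSMUSG00000031760) at chr8:94152607-94154146. Exons of Slc30a1, Slc30a4 and Mt2 overlap exons of a transcript on the opposite strand (1700034H15Rik, 4930417H01Rik and Gm45774). The use of strand in the counting is not given in the sources used here, so reads of these pairs may not be told apart.

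The 250 bases before the transcription start are shown for the metallothioneins and for Slc30a1, the members known as metal-responsive together with the brain form. They come from RefSeq, build GRCm38.p6, and the capitals mark the core of the metal response element, searched as TGCACNC and TGCGCNC on both strands.
Mt1, chr8:94178839-94179088, plus strand: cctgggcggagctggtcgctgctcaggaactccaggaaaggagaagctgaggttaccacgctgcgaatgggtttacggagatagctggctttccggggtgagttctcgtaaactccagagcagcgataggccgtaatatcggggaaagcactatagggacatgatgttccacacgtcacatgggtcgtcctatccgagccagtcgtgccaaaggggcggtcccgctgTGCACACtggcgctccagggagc
Mt2, chr8:94172368-94172617, plus strand: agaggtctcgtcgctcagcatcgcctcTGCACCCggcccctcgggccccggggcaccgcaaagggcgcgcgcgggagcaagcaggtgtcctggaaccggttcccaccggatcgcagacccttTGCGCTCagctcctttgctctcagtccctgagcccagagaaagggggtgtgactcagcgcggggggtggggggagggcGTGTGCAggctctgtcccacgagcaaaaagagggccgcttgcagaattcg
Mt3, chr8:94152357-94152606, plus strand: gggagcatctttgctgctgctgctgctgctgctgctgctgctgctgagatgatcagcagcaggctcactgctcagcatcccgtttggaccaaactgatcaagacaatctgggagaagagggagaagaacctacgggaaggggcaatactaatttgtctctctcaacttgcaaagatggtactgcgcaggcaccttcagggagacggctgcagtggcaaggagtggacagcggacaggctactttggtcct
Slc30a1, chr1:191906531-191906780, plus strand: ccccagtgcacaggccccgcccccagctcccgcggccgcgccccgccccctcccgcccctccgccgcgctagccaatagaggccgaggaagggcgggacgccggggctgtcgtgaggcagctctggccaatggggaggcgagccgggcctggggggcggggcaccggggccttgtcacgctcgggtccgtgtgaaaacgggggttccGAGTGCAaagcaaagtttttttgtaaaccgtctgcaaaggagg
The core occurred 1 time before Mt1, 3 times before Mt2, not at all before Mt3 and 1 time before Slc30a1. In the windows of the other transporters, which are not shown, it occurred 2 times before Slc30a4 and 1 time before the upstream start of Slc30a3. Before the downstream start of Slc30a3 (window chr5:31093528-31093777) it did not occur. Of 32851 promoters of this length, 21.4% held at least 1 core and 1.26% at least 3. Other annotated transcripts start 122 and 152 bases downstream of the start used here for Mt1, 46 and 242 bases for Mt2, 139 bases for Mt3 and 475 bases for Slc30a1. Bases in front of those starts lie outside the windows, so cores there were not counted. A match is a description of the letters and not of binding.

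Across the Synpr division the members went in opposite directions, with the vesicular transporter on the Synpr-low side and the metallothioneins on the Synpr-high side. The members were chosen with this contrast in view, so its values are a description and carry no test. Counts were summed over the cells of each mouse and class, and differences are means over 4 mice of log2(CPM + 1) in Synpr-high minus Synpr-low cells. Groups that did not overlap, with all 4 values of a class above all 4 of the other, were found for 16.4% of 12851 genes with a mean of at least 1 CPM, 7.22% higher and 9.19% lower in Synpr-high cells. Among the 6 members this held for Mt2, higher, and Slc30a3, lower. The median difference of the 6 members was 0.68, against -0.05 for all these genes.

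Slc30a3 stood at 236, 199, 302 and 255 CPM in the Synpr-low cells of the blindly sampled mouse and projection mice 1, 2 and 3. In Synpr-high cells of the same mice it stood at 17.0, 4.15, 12.3 and 17.8 CPM. Every Synpr-low value was above every Synpr-high value, and the mean was 19.4 times higher in Synpr-low cells (248 ± 43.0 against 12.8 ± 6.26 CPM, SD, n = 4 mice). The log2 difference was -4.32 ± 0.74 (SD, n = 4) and had the same sign in each mouse. Behind these values lay 778 counts in Synpr-high and 17838 counts in Synpr-low cells.

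The summed level of Slc30a3 was high up to a Synpr level of 400 CPM, beyond the limit of 200 CPM, where it rests on few cells. In sums over cells it was 234 CPM in cells without Synpr, 275 CPM in the 163 cells with some Synpr below 100 CPM, 390 CPM in the 13 cells at 100 to 200 CPM, 316 CPM in the 8 cells at 200 to 400 CPM and 5.43 CPM in the 430 cells above. Summed, the 8 cells just inside the limit thus resembled the Synpr-low cells for this gene. Of them 62.5% had a count of it, against 92.3% of the 13 cells just outside. Single cells carried most of the sum of the 8: in projection mouse 3 an LEC cell with 209 CPM of Synpr held 298 counts. An RSC cell of that mouse with 349 CPM of Synpr held 118. Mt1 stood at 56.9 CPM in those 8 cells and 177 CPM in the 13, against 312 CPM in the cells above 400 CPM. A limit of 100 CPM in place of 200 CPM moved the log2 difference of Slc30a3 to -3.54, and a limit of 400 CPM moved it to -4.99.

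**Figure D1:**
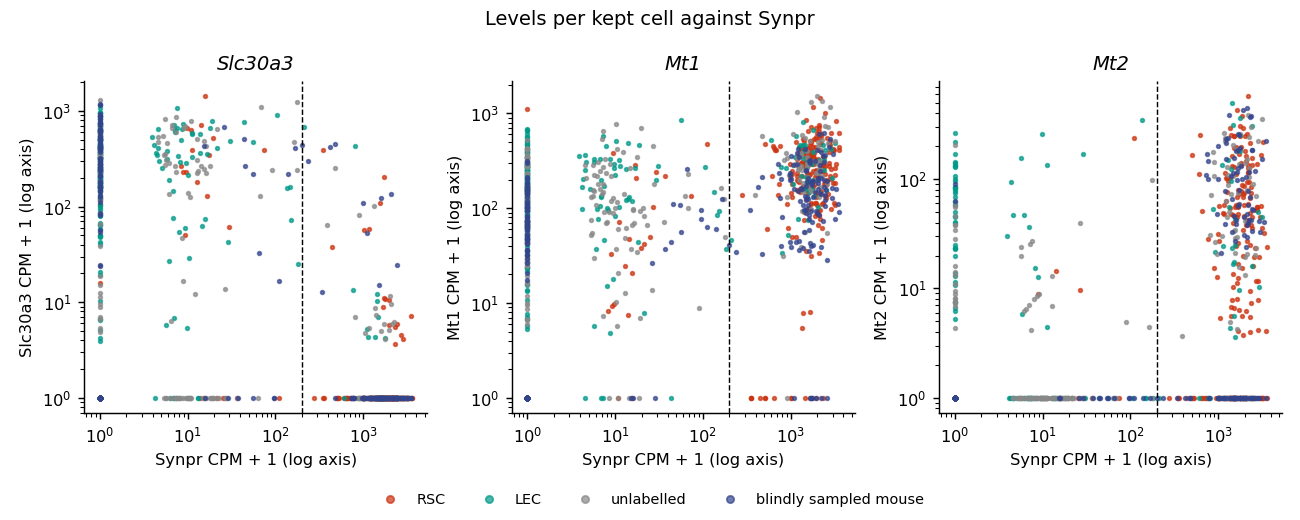
Levels of Slc30a3, Mt1 and Mt2 against Synpr in each of the 1011 kept cells, both as CPM + 1 on log axes, coloured by projection label or as cells of the blindly sampled mouse, with the limit of 200 CPM dashed. Of Synpr-low cells 67.4% have a count of Slc30a3 and of Synpr-high cells 12.3%, so most cells with Slc30a3 sit left of the limit, and most cells with Mt2 sit right of it.

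Mt2 showed the largest difference among the metallothioneins. It was at 76.9, 32.2, 52.8 and 91.2 CPM in Synpr-high cells of the blindly sampled mouse and projection mice 1 to 3, and at 1.28, 9.17, 17.4 and 11.6 CPM in their Synpr-low cells. The classes did not overlap, and the means were 63.2 ± 26.1 and 9.88 ± 6.70 CPM (SD, n = 4). The log2 difference was 2.80 ± 1.64 and ranged from 1.54 in projection mouse 2 to 5.10 in the blindly sampled mouse. Only 5 counts of Mt2 lay behind the Synpr-low value of the blindly sampled mouse, and without this mouse the mean difference was 2.04.

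Mt1 was at 175, 259, 312 and 352 CPM in Synpr-high cells and at 61.8, 149, 185 and 176 CPM in Synpr-low cells, in the same order of mice. In each mouse it was higher in Synpr-high cells, by 1.004 ± 0.337 on the log2 scale (SD, n = 4), but the value of the blindly sampled mouse in Synpr-high cells lay below the highest Synpr-low values. The means were 274 ± 76.4 and 143 ± 56.4 CPM.

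Mt3 was at 10.4, 28.2, 37.0 and 32.2 CPM in Synpr-high cells and at 3.83, 17.6, 15.5 and 17.0 CPM in Synpr-low cells. It was likewise higher in Synpr-high cells of each mouse, by 0.99 ± 0.28 (SD, n = 4), with an overlap of the classes that came from the blindly sampled mouse. In that mouse Mt3 was lower than in the projection mice in both classes. This difference cannot be told apart from its injected virus, its depth and its inferred sequencing run.

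The other transporters differed less between the classes on average. Slc30a1 ranged from 8.19 to 14.0 CPM in Synpr-high and from 6.87 to 12.4 CPM in Synpr-low cells, a log2 difference of 0.36 ± 0.38 (SD, n = 4), with 0.92 in projection mouse 1 and 0.12 to 0.24 in the other mice. Slc30a4 ranged from 9.80 to 18.8 CPM and from 6.25 to 14.0 CPM, a log2 difference of 0.31 ± 0.32. Both were higher in Synpr-high cells of all 4 mice, for Slc30a4 by little in projection mouse 1 and projection mouse 3. Their values overlapped between the classes.

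**Figure D2:**
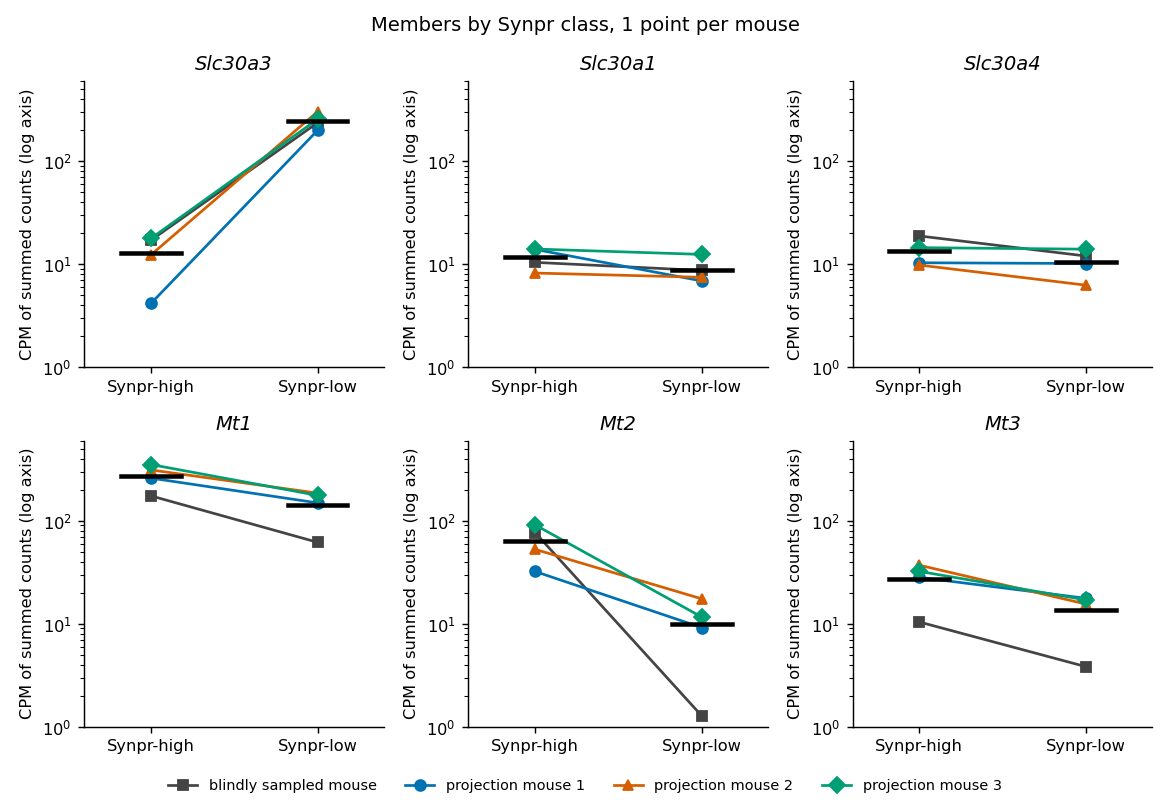
Level of each member in Synpr-high and Synpr-low cells as CPM of summed counts on a log axis, 1 point per mouse, with lines joining the classes of a mouse and black bars at the mean of 4 mice. The lines of Slc30a3 point up towards Synpr-low cells, from a mean of 12.8 to 248 CPM, while those of Mt1, Mt2 and Mt3 point down. The lines of Slc30a4 and most of Slc30a1 are flatter, with a log2 difference of 0.92 for Slc30a1 in projection mouse 1.

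Markers of other cells were read beside these values. The astrocyte list (8 genes) summed to 9.78 to 14.6 CPM in Synpr-high cells, where Aqp4 and Gjb6 were at 0, and to 22.6 to 52.3 CPM in Synpr-low cells, where all 8 had counts. S100b (4.53 to 9.64 against 13.7 to 39.6 CPM) and Sox9 (2.97 to 5.20 against 6.83 to 11.2 CPM) made up most of it, and Aldh1l1 stood at 0.482 to 2.24 CPM in Synpr-high and 0 to 1.36 CPM in Synpr-low cells. The oligodendrocyte list (5 genes) summed to 25.4 to 337 CPM in Synpr-high and 48.5 to 598 CPM in Synpr-low cells, and the microglia list (6 genes) to at most 9.16 and 1.54 CPM. The inhibitory neuron list (5 genes measured) reached 142 CPM in Synpr-high and 33.04 CPM in Synpr-low cells, with all 5 genes at 0 in the blindly sampled mouse, and the endothelial list (2 genes measured) reached 0.289 and 0.961 CPM, with Pecam1 at 0 in Synpr-low cells. The immediate early genes, which also report dissociation stress, summed to 413 to 1137 CPM and 452 to 1082 CPM. The part of RNA of these other cells in the differences was not tested.

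The share of cells in which a member was detected followed the same division. Each cell was drawn down to 20000 counts, which 927 of the 1011 cells reached (67 of the 84 cells left out were from the blindly sampled mouse). A mean of 62.0 ± 9.47% of Synpr-low cells had a count of Slc30a3 (SD, n = 4 mice, range 49.2% to 69.3%), against 4.64 ± 2.40% of Synpr-high cells (3.36% to 8.24%). Mt2 was found in 45.7 ± 8.43% of Synpr-high and 7.41 ± 4.31% of Synpr-low cells, and Mt1 in 90.8 ± 2.48% and 70.8 ± 9.32%. For Mt3 the shares were 35.9 ± 17.4% and 22.8 ± 9.29%. Without the draw to equal depth, Slc30a3 was found in 66.8% and 12.97% of cells, Mt2 in 16.1% and 63.8%, Mt1 in 82.3% and 95.07% and Mt3 in 60.8% and 74.2%, each first for Synpr-low and then for Synpr-high cells.

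Slc30a1 and Slc30a4 were found in few cells of either class. At equal depth Slc30a1 was detected in 11.8 ± 2.59% of Synpr-high and 8.98 ± 3.29% of Synpr-low cells, and Slc30a4 in 12.5 ± 3.96% and 10.6 ± 2.43% (SD, n = 4). In the projection mice the 10% of cells with the most counts held 92.7% of all counts of Slc30a1 and 82.6% of those of Slc30a4, against 56.4% for Slc30a3 and 32.2% for Mt3. The highest value per cell of Slc30a4, 9017 CPM, came from 10 counts in a Synpr-low cell of projection mouse 1 with a total of 1109 counts, and the next cell had 314 CPM.

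The number of metallothionein genes detected per cell varied within a class. At a fixed depth a gene of low level can go uncounted by sampling alone. Mt3, for one, was found in 22.8% of Synpr-low cells at 20000 counts and in 60.8% without the draw. The numbers therefore do not show that cells of a class differ in expression. At 20000 counts 17.7 ± 7.98% of Synpr-high cells had all 3 and 5.24 ± 2.37% had none (SD, n = 4 mice). Of Synpr-low cells 1.73 ± 1.33% had all 3 and 23.1 ± 10.95% had none. The most common number was 2 genes in Synpr-high cells (42.4 ± 2.51%) and 1 gene in Synpr-low cells (54.4 ± 3.88%).

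Whether Slc30a3 and the metallothioneins were detected in the same cells is likewise a description. Over all cells at 20000 counts, Mt2 was found in 7.82 ± 3.68% of cells with Slc30a3 and 34.8 ± 8.61% of cells without it (SD, n = 4 mice), and Mt1 in 70.1 ± 8.19% and 85.3 ± 6.16%. Both were lower with Slc30a3 in all 4 mice. For Mt3 the shares were 26.1 ± 9.28% and 30.1 ± 14.3%, with 2 mice in each direction.

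Within Synpr-low cells the sign of these differences varied between mice. Among 327 Synpr-low cells with Slc30a3 and 194 without, the difference for Mt1 was -2.15, 6.63, -8.48 and 5.94 percentage points in the blindly sampled mouse and projection mice 1 to 3, a mean of 0.486 ± 7.18 points. For Mt2 the differences were -2.94, 1.80, -13.7 and -0.148 points, and for Mt3 they were 10.52, 14.8, 9.32 and -7.52 points. The means, -3.75 ± 6.91 points for Mt2 and 6.77 ± 9.81 points for Mt3, were smaller than the spread between mice. In the blindly sampled mouse 0 of 52 Synpr-low cells with Slc30a3 had a count of Mt2, which allows a share of up to 5.77% of cells with a count at this depth (3 cells of 52) and does not limit the share that express the gene.

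**Figure D3:**
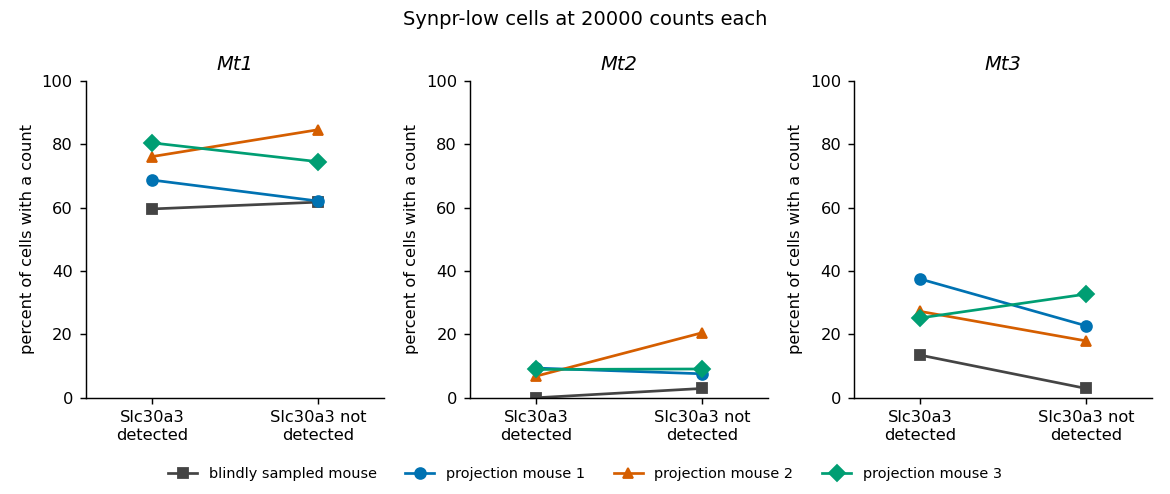
Percent of Synpr-low cells with a count of Mt1, Mt2 or Mt3 among cells in which Slc30a3 was or was not detected, each cell at 20000 counts, 1 line per mouse. For each gene the lines run in both directions, and the mean differences, 0.486, -3.75 and 6.77 points, are smaller than their SD over 4 mice.

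The 194 Synpr-low cells without Slc30a3 were not the same as those with it in other markers. At 20000 counts per cell, summed Foxp2, a transcription factor of deep-layer corticothalamic neurons, stood at 33.3 to 57.3 CPM without Slc30a3 and at 0.813 to 7.39 CPM with it. Ctgf, a marker of the deepest cortical layer, stood at 7.27 to 188 CPM without Slc30a3 and at 0 to 0.568 CPM with it. Mt1 was at 72.1, 114, 195 and 149 CPM in Synpr-low cells without Slc30a3 and at 61.5, 121, 164 and 168 CPM in those with it, a log2 difference with minus without of -0.05 ± 0.21 (SD, n = 4 mice).

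Only 18 Synpr-high cells had Slc30a3 at this depth, of 406. Of these 18 cells 8 had Mt1 (44.4%), against 361 of 388 other Synpr-high cells (93.0%). Slc17a6, the vesicular glutamate transporter that marks the claustrum core here, was found in 16.7% of the 18 and 47.9% of the 388, and their median Synpr was 848 and 1686 CPM. When cells were not drawn to equal depth, the mean difference for Mt1 between Synpr-high cells with and without Slc30a3 was -1.44 points in place of -56.8 ± 29.7 points (SD, n = 4).

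The projection labels come from retrobeads and not from counts, so the labels were compared with tests, on genes chosen with earlier results known. Counts of the 3 projection mice were summed per mouse and label, and 13976 genes were tested with edgeR's quasi-likelihood F test, with Benjamini-Hochberg adjustment over all of them and a threshold of 0.05. The labels differ in their cells: 81.2%, 80.0% and 92.9% of RSC cells of projection mice 1, 2 and 3 were Synpr-high, against 22.5%, 14.5% and 12.3% of LEC cells and 22.5%, 28.4% and 32.6% of unlabelled cells. A difference between labels over all cells is therefore also a difference in the mixture of Synpr classes. The 3 comparisons share sums with each other and are not independent. The share of all genes whose labels did not overlap in 3 mice was not counted, so such an order is a description.

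Slc30a3 was lower in RSC than in LEC cells. In RSC cells it stood at 60.3, 34.3 and 23.3 CPM in projection mice 1, 2 and 3, and in LEC cells at 157, 304 and 234 CPM. The labels did not overlap. The log2 fold change was -2.53 (SE 0.40) with an adjusted p of 0.00587 in edgeR, and it was lower in 3 of 3 mice. Of all genes tested, 3.95% were called in this comparison (1.89% higher and 2.06% lower in RSC cells), and Slc30a3 was the 1 member called. The call was lost without projection mouse 2 (log2 fold change -2.20, edgeR adjusted p = 0.119) and without projection mouse 3 (-2.24, adjusted p = 0.132), when 2 mice remained. Without projection mouse 1 the fold change was -3.20 (adjusted p = 0.00257).

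On plate 12, where both labels were processed together, Slc30a3 stood at 36.7 CPM in RSC and 244 CPM in LEC cells of projection mouse 3, a log2 difference of -2.70. On the other plates of this mouse the values were 15.3 and 227 CPM, a difference of -3.80. Synpr differed on plate 12 too, at 1614 CPM in RSC and 396 CPM in LEC cells. Without plate 12 the fitted fold change of Slc30a3 was -2.60 (edgeR adjusted p = 0.0138).

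The metallothioneins had higher means in RSC cells but did not pass the threshold. Mt2 stood at 26.4, 47.0 and 77.1 CPM in RSC cells and at 19.2, 31.3 and 26.3 CPM in LEC cells of projection mice 1 to 3. These values overlapped, although Mt2 was higher in RSC cells of each mouse. The log2 fold change was 1.01 (SE 0.48, 95% interval -0.04 to 2.06, edgeR adjusted p = 0.330). Mt1 stood at 241, 244 and 322 CPM in RSC cells and at 195, 240 and 204 CPM in LEC cells. Here every RSC value was above every LEC value, but only by 241 CPM (RSC, projection mouse 1) against 240 CPM (LEC, projection mouse 2). The log2 fold change was 0.37 (SE 0.18, interval -0.03 to 0.78, edgeR adjusted p = 0.356).

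Mt3 showed a like order, at 25.1, 30.9 and 29.9 CPM in RSC and 22.1, 19.3 and 17.97 CPM in LEC cells. Its log2 fold change was 0.56 (SE 0.21, interval 0.09 to 1.03), with an unadjusted p of 0.0228 and an edgeR adjusted p of 0.200. On plate 12 alone the log2 differences were 0.59 for Mt1, 0.84 for Mt2 and 0.54 for Mt3. For Slc30a1 and Slc30a4 the fold changes were 0.07 (SE 0.44) and 0.54 (SE 0.43), with edgeR adjusted p values of 0.971 and 0.629. Their log2 differences were -1.55 and 0.82 on plate 12, and -0.30 and -0.16 on the other plates of projection mouse 3. With mouse as a block 4 of the 6 members were at an unadjusted edgeR p under 0.05 in place of 2. Of all 13976 genes 2331 were, in place of 2290. The astrocyte list summed to 7.85 to 17.9 CPM in RSC and 17.4 to 20.1 CPM in LEC cells, the oligodendrocyte list to 37.4 to 878 CPM and 110 to 359 CPM and the inhibitory neuron list to 6.80 to 197 CPM and 0.163 to 0.893 CPM. The part of RNA of these cells in the differences between labels was not tested. Leaving out projection mouse 1 moved the fold change of Slc30a1 to -0.44 and leaving out projection mouse 3 moved it to 0.80.

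**Figure D4:**
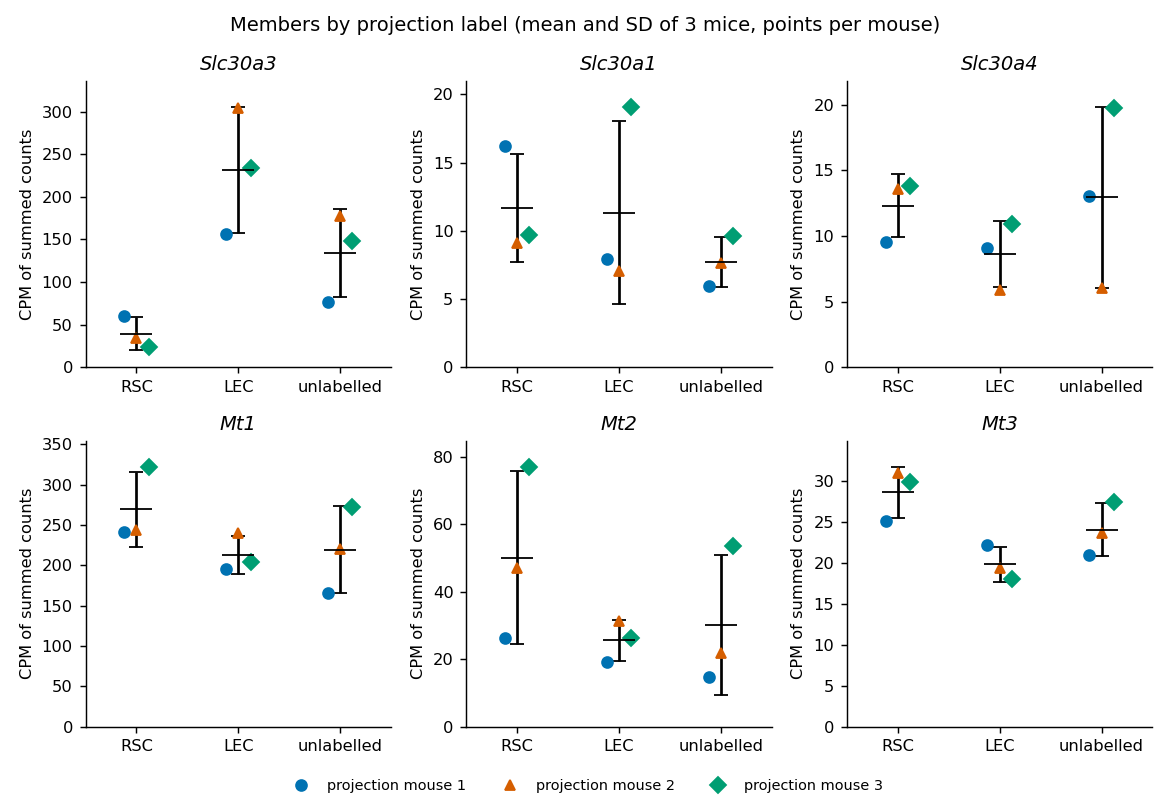
Level of each member in RSC, LEC and unlabelled cells as CPM of summed counts, 1 point per projection mouse, with the mean and SD of 3 mice. Slc30a3 averages 39.3 CPM in RSC, 232 CPM in LEC and 134 CPM in unlabelled cells. For Mt1 and Mt3 every RSC value lies above every LEC value, for Mt1 by little, while Mt2, Slc30a1 and Slc30a4 overlap. The share of all genes whose labels do not overlap was not counted.

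Unlabelled cells lay between the labels for Slc30a3, at 76.3, 177 and 148 CPM. Against RSC cells the log2 fold change was 1.75 (SE 0.39), which missed the threshold with an edgeR adjusted p of 0.0546, and 1.63% of genes were called (0.93% higher and 0.701% lower in unlabelled cells). Over the alternatives this adjusted p ranged from 0.00774 to 0.404, and it passed with DESeq2, without a filter on low counts and without projection mouse 1. Against LEC cells the log2 fold change was -0.78 (SE 0.38, edgeR adjusted p = 0.682), and edgeR called 0 of the 13976 genes, with 1079 at an unadjusted p under 0.05 and 114 called by DESeq2. The blindly sampled mouse, not part of these tests, had 133 CPM of Slc30a3 over all its cells.

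None of the metallothioneins passed the threshold between unlabelled cells and either label. Mt1 stood at 165, 220 and 273 CPM, Mt2 at 14.6, 21.8 and 53.7 CPM and Mt3 at 20.97, 23.6 and 27.4 CPM in unlabelled cells of projection mice 1 to 3. Against LEC cells their fold changes were 0.05, 0.24 and 0.29 on the log2 scale, and against RSC cells -0.32, -0.77 and -0.28. All 3 were lower in unlabelled than in RSC cells in 3 of 3 mice. The edgeR adjusted p values were 0.512 or higher in both comparisons. With mouse as a block those against RSC cells were 0.350, 0.251 and 0.690, and 3 of the 6 members were at an unadjusted p under 0.05 in place of 1. Of all 13976 genes 1942 were, in place of 1888.

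The labels were then compared among cells of the same Synpr class. Sums per mouse, label and class were fitted together over 13163 genes. Among Synpr-low cells Slc30a3 stood at 451, 163 and 275 CPM in RSC cells and at 227, 361 and 263 CPM in LEC cells of projection mice 1, 2 and 3. The direction differed between mice, and the log2 fold change was 0.09 (SE 0.83, 95% interval -1.64 to 1.83, edgeR adjusted p = 0.983), from 34 RSC cells and 241 LEC cells. In this comparison 0.403% of genes were called and none of the 6 members.

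Mt1 in Synpr-low cells stood at 143, 108 and 117 CPM in RSC and at 165, 205 and 191 CPM in LEC cells. Every RSC value was below every LEC value, opposite to the order over all cells, with a log2 fold change of -0.59 (SE 0.22, unadjusted p = 0.0141, edgeR adjusted p = 0.239). Mt2 stood at 1.23, 33.001 and 0 CPM in RSC cells and at 11.9, 22.8 and 16.6 CPM in LEC cells, from 51 and 638 counts, with a log2 fold change of -0.53 (SE 0.87, edgeR adjusted p = 0.854). Of the 49 RSC counts in projection mouse 2, 47 came from a cell with 109.9 CPM of Synpr, and without it the value was 1.56 CPM. The same cell held 94 of the 161 counts of Mt1 in this sum, which stood at 52.2 CPM without it. With a limit of 100 CPM of Synpr, which moves this cell to the other class, Mt2 was called, at -4.04 and an adjusted p of 0.0323. Mt3 stood at 15.4, 19.5 and 10.8 CPM in RSC and at 17.3, 15.6 and 16.6 CPM in LEC cells, a log2 fold change of -0.08 (SE 0.35).

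Among Synpr-high cells Slc30a3 stood at 5.30, 0 and 8.42 CPM in RSC cells and at 0.667, 44.5 and 87.8 CPM in LEC cells. It was higher in LEC cells of projection mice 2 and 3 and lower in projection mouse 1. The log2 fold change was -3.16 (SE 0.94), with an unadjusted p of 0.00350 and an edgeR adjusted p of 0.799. Across all genes edgeR called 0 of 13163, with 724 at an unadjusted p under 0.05 and 30 called by DESeq2. The LEC values rest on 45 cells and 401 counts, and single cells carry most of them. A cell with 209 CPM of Synpr, just inside the limit, held 298 of the 300 counts in projection mouse 3, and another cell held 93 of the 98 counts in projection mouse 2. Without these cells the LEC values were 0.673 and 2.52 CPM. In RSC cells 118 of the 158 counts of projection mouse 3 came from a cell with 349 CPM of Synpr, without which the value was 2.17 CPM.

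Mt1, Mt2 and Mt3 did not differ detectably between the labels within Synpr-high cells. Their log2 fold changes were -0.10 (SE 0.21), -0.17 (SE 0.80) and -0.05 (SE 0.34), with 95% intervals from -0.55 to 0.34, from -1.85 to 1.51 and from -0.76 to 0.66 and edgeR adjusted p values of 1.0. The levels were 255, 281 and 335 CPM of Mt1 in RSC and 261, 396 and 270 CPM in LEC cells of projection mice 1 to 3.

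Whether the difference between RSC and LEC cells itself differed between the classes was tested as an interaction. For Slc30a3 the interaction (Synpr-high minus Synpr-low) was -3.25 on the log2 scale (SE 1.24), with an unadjusted p of 0.0171 and an edgeR adjusted p of 0.368. This value rests on the Synpr-high LEC sums that single cells carry. For the other 5 members the adjusted p was 0.634 or higher.

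**Figure D5:**
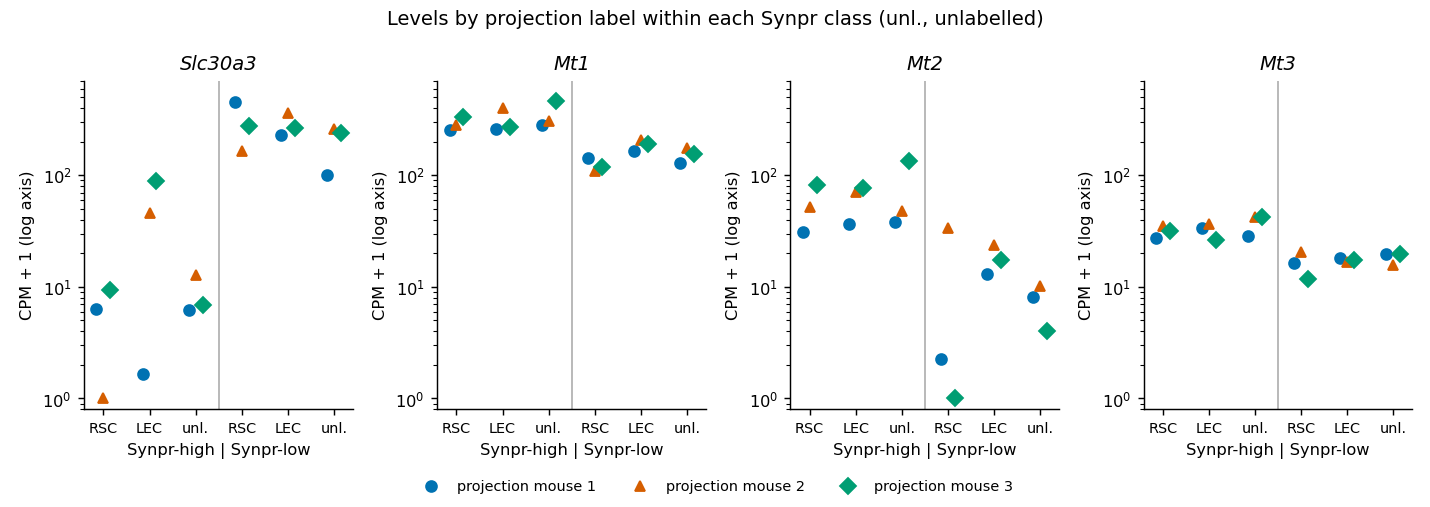
Levels of Slc30a3, Mt1, Mt2 and Mt3 in RSC, LEC and unlabelled cells of each Synpr class, as CPM + 1 on a log axis, 1 point per projection mouse. The step between Synpr-high and Synpr-low cells is seen under each label, at a mean of 4.58 against 296 CPM of Slc30a3 in RSC cells and 44.3 against 283 CPM in LEC cells.

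Unlabelled and LEC cells of the Synpr-low class had 100.1, 261 and 237 CPM and 227, 361 and 263 CPM of Slc30a3 in projection mice 1, 2 and 3. It was lower in unlabelled cells of each mouse, with a log2 fold change of -0.49 (SE 0.82, edgeR adjusted p = 1.0), and 0.0228% of genes were called. Foxp2, Ctgf and Sla, the deep-layer list, summed to 35.3 to 71.7 CPM in unlabelled cells, 6.70 to 15.9 CPM in RSC cells and 0.981 to 7.09 CPM in LEC cells over both classes. The part of such cells in the lower Slc30a3 of unlabelled cells was not tested.

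A list of 32 other genes of zinc transport and buffering was read in the same fits: the remaining ZnT and ZIP transporters, the factor Mtf1, Mt4, the zinc receptor Gpr39, the vesicle protein Tmem163 and the subunits of AP-3, the adaptor that carries ZnT3 to synaptic vesicles. Of these, 30 are in either table and 23 were tested. None was called in the comparison of RSC and LEC cells by edgeR, with 2 of 23 (8.70%) at an unadjusted p under 0.05 against 16.4% of all genes tested, and none in the other label comparisons. The median log2 fold change of the 23 was 0.16, against -0.00125 for all genes. In the Synpr division 1 of 23 genes with a mean of at least 1 CPM had classes that did not overlap, a smaller share than the 16.4% of all genes.

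That gene was Tmem163, a zinc-binding protein of synaptic vesicles. It stood at 75.4, 89.7, 95 and 74.0 CPM in Synpr-high cells and at 14.3, 2.15, 11.9 and 4.65 CPM in Synpr-low cells of the blindly sampled mouse and projection mice 1 to 3, the opposite side from Slc30a3. In RSC cells it stood at 75.2, 82.0 and 66.8 CPM and in LEC cells at 37.1, 11.4 and 13.4 CPM, a log2 fold change of 1.89 (SE 0.47, edgeR adjusted p = 0.0510). Among Synpr-low cells alone the fold change of Tmem163 was 3.60 (SE 0.87, adjusted p = 0.0760), and among Synpr-high cells it was -0.01 (SE 0.70, adjusted p = 1.0). The next by size were Ap3s1, the small subunit of AP-3, at 0.84 (SE 0.24, adjusted p = 0.0790) and Slc30a10, a manganese exporter, at -0.69 (SE 0.54, adjusted p = 0.622).

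The genes whose pattern was most like that of each member were taken by Pearson correlation of log2(CPM + 1), centred within each mouse, over the 20 sums per mouse, label and class and 14458 genes. The sums share animals, libraries and the Synpr division, so the values are a description. For Slc30a3 they were Ramp1 (0.95), Kcnc4 (0.94) and Nnat (0.93), a marker of the claustrum shell. For Mt1 they were Smoc2 (0.93), 3110047P20Rik (0.93) and S100a10 (0.91), for Mt2 Cald1 (0.96), Gap43 (0.91) and Mpp1 (0.90), and for Mt3 Gtf2a1l (0.94), Rbms1 (0.94) and Cast (0.94).

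For the other transporters the nearest genes were less close: Phc2 (0.88), Slmap (0.82) and Hcn2 (0.82) for Slc30a1, and Zfp62 (0.86), Specc1l (0.83) and Gosr1 (0.83) for Slc30a4. Among the members themselves the metallothioneins went together, at 0.85 for Mt1 and Mt2, 0.89 for Mt1 and Mt3 and 0.86 for Mt2 and Mt3. Slc30a3 went against them, at -0.75 with Mt1, -0.70 with Mt2 and -0.85 with Mt3, and stood at -0.06 with Slc30a1 and -0.24 with Slc30a4.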

How the data were processed

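Counts per gene and cell were used as the authors deposited them, in a table for the blindly sampled animal and another for the projection animals. The methods place 3 plates on a flow cell and the other 10 on another, without naming animals. That the blindly sampled mouse had a run of its own is inferred from its separate table and its 3 plates. Per the methods, adapters were removed, reads were tagged to cell barcodes and molecular identifiers and aligned with STAR. The submitters' processing notes name NCBIM37 and Seurat. The annotation, the counting tool, the use of strand and whether identifiers were collapsed are not given in the sources used here. Spike-in counts (7.74% of counts) were left out of all totals. Mouse and projection label came from the deposited cell tables. Cells without any count of Snap25 (27) and further cells without any of Slc17a7 (74) were removed. No doublet caller was run, since cells were picked singly. A level is the CPM of counts summed over the cells of a mouse and group, because mice and not cells are the replicates.

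The genes, the Synpr limit and the lists of other zinc genes and cell markers were chosen with earlier results of these data known. Named genes are the 6 members, the listed zinc genes past the threshold in a label comparison over all cells or else the 3 with the largest absolute fold change between RSC and LEC cells, the 3 genes most correlated with each member, and Synpr, Snap25, Slc17a7 and cell markers beside a result. Slc30a1 and the other members are reported whatever their values.

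Sums of at least 5 cells were compared by the two-sided quasi-likelihood F test of edgeR 4.0.16 in R 4.3.3, after a filter by filterByExpr and TMM scaling, with Benjamini-Hochberg adjustment over all genes tested. Standard errors are the absolute log2 fold change over the square root of F, and 95% intervals use the t distribution with the degrees of freedom of the test. The procedure was tested on simulated data. Sums with the same mouse number come from the same animal, which is where their pairing comes from. Deviations from the group means correlated across labels of a mouse with a median of 0.0356 (range -0.0229 to 0.0885, 9 pairs). Mouse as a block, DESeq2 1.42.0, other size factors, no filter on low counts, other limits of Synpr and of the kept cells, other depths and pseudocounts and leaving out each mouse were the alternatives. The fit without plate 12 was chosen after seeing the data. For detection per cell, each cell was drawn at random down to 20000 counts with numpy 2.4.6. The shares and floors cover counting error only, and the median cell of the blindly sampled mouse had 26023 counts.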

Additional observations from a re-analysis of the deposited data

Results flagged for a closer look

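Of 33 sets of 4 values, 1 for each mouse, 3 held a mouse farther from the others than Dixon's limit for 4 values allows, and chance gives about 1 in 20 such sets. The share of Synpr-high cells with Slc30a3 at 20000 counts was 8.24% in the blindly sampled mouse and 3.36% to 3.53% in the projection mice. Mt3 stood at 3.83 CPM in Synpr-low cells of the blindly sampled mouse and at 15.5 to 17.6 CPM in those of the projection mice. The log2 difference of Slc30a1 between Synpr-high and Synpr-low cells was 0.92 in projection mouse 1 and 0.12 to 0.24 in the other mice.

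The cells left out for lack of Snap25 or Slc17a7 enter no comparison and had a median total of 4813 counts. They held 51 counts of Slc30a3 in 11 cells, 7 of Slc30a1, 4 of Slc30a4, 103 of Mt1 in 34 cells, 9 of Mt2 and 11 of Mt3. Summed over these cells Mt1 stood at 80.2 CPM and Slc30a3 at 39.7 CPM.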

How the results depend on the processing

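Of 498 results recomputed under an alternative, 463 kept their side of the threshold, or for counts and descriptions stayed within the limits set for them. None changed sign past a threshold. Fold changes that passed no threshold could change sign and still count among the 463. The sign of Slc30a1 between RSC and LEC cells changed in 3 of 9 alternatives, and so did that of Slc30a4 between unlabelled and RSC cells. For the members, RSC against LEC called 1 gene and 0 to 1 without each mouse. Unlabelled against RSC called 0, but 1 (Slc30a3) with DESeq2, 1 with no filter and 0 to 1 without each mouse. RSC against LEC in Synpr-low cells called 0, but 1 (Mt2) at a limit of 100 CPM. Over all genes, RSC against LEC called 552, DESeq2 1140, and 59 to 391 without each mouse. Unlabelled against LEC called 0, DESeq2 114, no filter 9, the block 2, and 0 to 2 without each mouse. Unlabelled against RSC called 228, DESeq2 662, the fit without plate 12 called 120, and 8 to 47 without each mouse. In Synpr-high cells RSC against LEC called 0 and DESeq2 30. In Synpr-low cells RSC against LEC called 53, DESeq2 428, and 4 to 20 without each mouse, and unlabelled against LEC called 3, DESeq2 34, and 0 to 1 without each mouse. With 2 mice left fewer samples entered each fit, and the cause of the other shifts was not tested. The Synpr difference of Slc30a3 was -3.54 at 100 CPM, and the Mt1 co-detection in Synpr-high cells -1.44 points without the draw to 20000 counts.

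With mouse as a replicate block Slc30a3 was at -2.47 between RSC and LEC cells (edgeR adjusted p = 0.0143), and the block changed none of 36 calls of members. Depth limits Mt2 in Synpr-low cells of the blindly sampled mouse, with 5 counts, and Slc30a1 and Slc30a4, with 654 and 745 counts over all Synpr-low cells.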

Other observations

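Members also varied among unlabelled cells of the same class. In unlabelled Synpr-high cells Mt2 stood at 37.3, 47.04 and 134 CPM and Mt1 at 279, 308 and 462 CPM in projection mice 1, 2 and 3, and Slc30a3 at 5.15, 11.8 and 5.89 CPM. In unlabelled Synpr-low cells Mt2 stood at 7.03, 9.15 and 3.04 CPM, below the LEC cells of each mouse (11.9, 22.8 and 16.6 CPM), with a log2 fold change of -1.40 (SE 0.83, edgeR adjusted p = 1.0).

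Within Synpr-low cells at 20000 counts, Gnb4 and Lxn, markers of the claustrum, were higher in cells with Slc30a3 than in cells without it in all 4 mice, at 153 to 223 CPM against 55.9 to 172 CPM for Gnb4 and 134 to 307 CPM against 36.4 to 213 CPM for Lxn. Nnat, the shell marker, and Spon1 were each higher with Slc30a3 in 3 of 4 mice. In projection mouse 2 they were lower with it, at 878 against 1155 CPM for Nnat and 287.5 against 303 CPM for Spon1. In projection mouse 3 they were close, at 1369 against 1321 CPM and 296 against 289 CPM. Sla, a marker of layer 6, stood at 0 to 1.22 CPM with Slc30a3 and 18.9 to 33.8 CPM without it. The highest cell for Slc30a3 had 1426 CPM (projection mouse 1, Synpr-low), and those for Mt1 and Mt2 had 1518 and 572 CPM (projection mouse 3, Synpr-high).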
